A study of Mus musculus with 12 samples.

Results

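The 8 genes described here encode enzymes that make or use glutamine and glutamate: *Glul*, *Glud1*, *Got1*, *Got2*, *Gpt2*, *Oat*, *Asns* and *Aldh18a1*. They were chosen by symbol, and all 8 were found among the 15838 genes of each deposited table. The transcriptome was measured in corneal endothelial cells (CEC) with Descemet membrane from Slc4a11-/- (KO) and Slc4a11+/+ (WT) C57BL/6 mice aged 10 weeks. There were 12 RNAseq libraries, with 3 from each genotype in each sex. The KO allele lacks exons 9 to 13 of *Slc4a11* in every cell of the animal, so the KO is not limited to the endothelium. The tables hold no value for a single library. Group levels were therefore estimated from the mean level and the fitted coefficients, in CPM (read counts scaled to a common library size), without an error. The errors given are the standard errors (SE) and 95% confidence intervals of the log2 fold changes (log2FC), with n = 3 libraries in each group. The depth of the libraries is unknown here, and whether a library came from 1 mouse or from pooled membranes is described differently in the sources, so p-values measure only the spread between these libraries.

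SLC4A11 is a membrane transporter of the corneal endothelium, the cell layer that pumps fluid out of the corneal stroma. Glutamine is a major fuel of these cells: its breakdown releases ammonia and glutamate, and glutamate dehydrogenase or an aminotransferase converts the glutamate to α-ketoglutarate for the citric acid cycle. Glutamine synthetase, encoded by *Glul*, runs in the opposite direction and fixes ammonia onto glutamate, while other enzymes draw on glutamate to make proline, ornithine, aspartate, alanine or asparagine.

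A gene was called where the adjusted p of limma's moderated t (Benjamini-Hochberg over 15838 genes) was under 0.05. Which sex is the reference of the genotype effect is not labelled. It was inferred to be males, and every effect given for males or females rests on that. For females and for the mean over both sexes, t and p were derived here from limma's coefficients and SE. Where a call by limma in females is named, this derived test is meant. In KO males, *Glul* was 2.42-fold lower and *Aldh18a1* 1.63-fold higher than in WT males, and these were the 2 of 8 enzymes called. Over all genes, 5.47% were called in males. In KO females 0 of the 8 enzymes were called by the derived test, beside 1.42% of all genes, and 0 had an unadjusted p under 0.05. The sex difference of the KO effect, tested as the interaction of sex and genotype, was called by limma for 0 of the 8 enzymes and 0.543% of all genes, and 2 enzymes had an unadjusted p under 0.05. These 2 were *Glul* and *Aldh18a1*.

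*Slc4a11* itself (chr2:130684113-130697519, minus strand, GRCm38) was at 3076 CPM in WT and 865 in KO males, and at 4681 in WT and 634 in KO females. The log2FC of KO against WT was -1.83 in males (SE 0.22, adjusted p = 0.000522) and -2.89 in females (SE 0.22, adjusted p = 2.77e-05). KO libraries were thus lower in both sexes. The counts cover the whole gene, so the reads left in the KO may lie outside the deleted exons.

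Promoter sequences are shown for *Asns*, *Aldh18a1* and *Got1*, the members with the highest log2FC in KO males, because each holds a match to a known response element. They were taken from RefSeq (GRCm38.p6), in which all 8 members were matched, and read 5′ to 3′ on the gene's strand. *Aldh18a1* (chr19:40588464-40588713, minus strand) and *Got1* (chr19:43524606-43524855, minus strand) are the 250 bases before the start, and *Asns* (chr6:7693225-7693459, minus strand) ends 16 bases before the RefSeq start. Capitals mark an E-box (CACGTG) in *Aldh18a1*, bound by MYC and related factors, and an element recognised by ATF4 (TGATGNAA) in *Asns* and, on the opposite strand, in *Got1*.
Aldh18a1: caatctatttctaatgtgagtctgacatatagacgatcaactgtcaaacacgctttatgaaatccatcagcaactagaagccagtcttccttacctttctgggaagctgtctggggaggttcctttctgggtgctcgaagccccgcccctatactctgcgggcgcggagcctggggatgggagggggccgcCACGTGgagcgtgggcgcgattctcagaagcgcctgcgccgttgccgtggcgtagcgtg
Asns: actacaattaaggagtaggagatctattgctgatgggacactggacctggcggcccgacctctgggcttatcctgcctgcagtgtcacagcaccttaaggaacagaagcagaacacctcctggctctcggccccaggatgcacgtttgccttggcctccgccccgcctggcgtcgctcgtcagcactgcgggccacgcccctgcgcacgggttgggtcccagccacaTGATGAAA
Got1: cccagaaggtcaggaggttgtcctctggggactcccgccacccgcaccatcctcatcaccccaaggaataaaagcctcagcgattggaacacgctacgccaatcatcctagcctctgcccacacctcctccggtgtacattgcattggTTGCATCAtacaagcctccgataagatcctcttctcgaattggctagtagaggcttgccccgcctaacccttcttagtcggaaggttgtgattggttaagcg
The match began 59 bases before the RefSeq start in *Aldh18a1*, 23 in *Asns* and 102 in *Got1*. For *Asns* the start differs between annotations. In GENCODE the gene starts at chr6:7693254, further upstream, so the match lies inside the annotated gene there. Over windows of 300 bases, 250 before and 50 after the start, both strands were searched in 32851 promoters. TGATGNAA was found in 3.97% of them and in 2 of the 8 members, and CACGTG in 7.15% and in 1 of the 8. The glucocorticoid element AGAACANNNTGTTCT was found in 0.00913% of the promoters and in 0 of the 8 members. It is so rare in this strict form that 0 of 8 says nothing about the members. A match is a description of the letters and not a measured binding site.

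Per kilobase of exon, the mean level over all libraries was highest for *Glul* at 80.1 CPM per kb. It was 31.2 for *Oat*, 29.4 for *Glud1* and 11.2 for *Aldh18a1*. *Got1* (6.18), *Gpt2* (5.17), *Got2* (4.86) and *Asns* (2.48 CPM per kb) were the lowest of the 8. No test between genes was made.

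**Figure D1:**
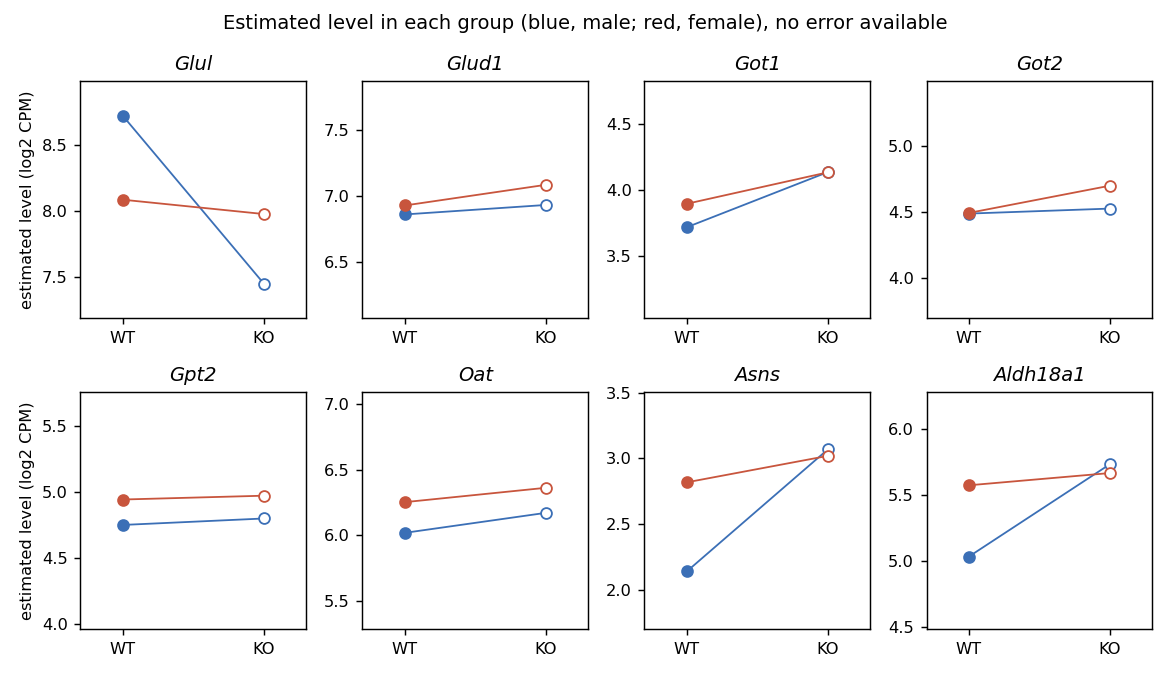
Estimated level of each enzyme in WT (filled) and KO (open) mice, in log2 CPM, for males (blue) and females (red); every panel spans the same number of log2 units and no error is available. *Glul* falls from 422 to 174 CPM in males and lies at 271 and 251 CPM in females, while for *Aldh18a1* and *Asns* male WT is the lowest of the 4 groups.

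*Glul* (ENSMUSG00000026473, chr1:153899944-153909723, plus strand, GRCm38) encodes glutamine synthetase, the enzyme that consumes ammonia to form glutamine from glutamate. Its estimated level was 422 CPM in WT and 174 in KO males, and 271 in WT and 251 in KO females. Male WT was thus the highest group and male KO the lowest, with both female groups between them. The log2FC was -1.27 in males (SE 0.24, 95% interval -1.80 to -0.75, adjusted p = 0.00986), which ranks 223 by p among all genes. With a further threshold of |log2FC| > 1, *Glul* was the 1 member left in males, beside 1.91% of all genes. In females the log2FC was -0.11 (SE 0.24, adjusted p = 0.858), and its 95% interval of -0.63 to 0.41 does not reach the male estimate. The difference between the sexes was 1.17 on the log2 scale (SE 0.35, unadjusted p = 0.00462) and was not called after adjustment over all genes (adjusted p = 0.182). A lower level in such bulk samples cannot be told apart from fewer cells that express the gene.

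In WT mice the estimated *Glul* level was lower in females than in males by 0.64 on the log2 scale, and in KO mice it was higher in females by 0.53. These differences have no error, as they combine coefficients of 2 fits. The fitted difference of female against male over both genotypes was -0.06 (SE 0.29, adjusted p = 0.975). The *Glul* locus overlaps *Teddm2* on the opposite strand, and the library kit was stranded, but how strand was used in counting is not given in the sources used here.

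Glutamine synthetase is also abundant in glia, and its gene is known to be induced by glucocorticoids, so both gene groups are given beside it. The markers of glia and nerve with a value, 7 of 9, summed to 233 CPM in WT and 201 in KO males, and 239 in WT and 193 in KO females. Most of this sum was *Slc1a3*, a glutamate transporter, and without it the other 6 summed to 70.5 CPM in WT and 73.4 in KO males, and 73.1 in WT and 76.9 in KO females. *Gfap* was near 0, at a mean of 0.88 CPM. In males 0 of these 7 markers were called, beside 5.47% of all genes. The 15 glucocorticoid-induced genes summed to 835 CPM in WT and 657 in KO males, and 742 in WT and 933 in KO females. Without *Mt1*, a metallothionein gene, the other 14 summed to 654 and 495 CPM in males and to 609 and 561 in females, so the higher female sum in KO came from *Mt1* alone. In males 3 of the 15 had a positive log2FC and their median was -0.36, beside -0.02 over all genes. The called genes were *Sult1a1* (log2FC -0.97, adjusted p = 0.0109) and *Klf9*, a transcription factor (log2FC -0.69, adjusted p = 0.0239), both lower. In females 7 of the 15 had a positive log2FC, and *Mt1* was called, higher in KO (log2FC 1.49, adjusted p = 0.0295). The part of either group in the change of *Glul* was not tested.

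Over the effects of KO in males, KO in females and sex, the genes with the pattern nearest to *Glul* among those of at least 1 CPM were *Gfpt2*, *Rab3il1* and *Gm15675*. Their Euclidean distances from *Glul* over these 3 log2 coefficients were 0.0904, 0.0950 and 0.104. *Gfpt2* encodes an enzyme that uses glutamine to make glucosamine-6-phosphate. Its log2FC in males was -1.23 (SE 0.45, adjusted p = 0.127), against -1.27 for *Rab3il1* (SE 0.25, adjusted p = 0.0117) and -1.23 for *Gm15675* (SE 0.66, adjusted p = 0.295). Of these 3 genes *Rab3il1* alone was called in males.

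*Aldh18a1* (ENSMUSG00000025007, chr19:40550257-40588463, minus strand) encodes Δ1-pyrroline-5-carboxylate synthase, which reduces glutamate on the way to proline and ornithine. Its estimated level was 32.8 CPM in WT and 53.4 in KO males, and 47.7 in WT and 50.9 in KO females. Male WT was the lowest group, and the other 3 groups lay close together. The log2FC was 0.70 in males (SE 0.14, 95% interval 0.41 to 0.99, adjusted p = 0.00986) and 0.09 in females (SE 0.13, 95% interval -0.19 to 0.38, adjusted p = 0.767). The effect was smaller in females than in males by 0.61 (interaction -0.61, SE 0.19, unadjusted p = 0.00651), which was not called over all genes (adjusted p = 0.210). The estimated level was higher in females than in males by 0.54 on the log2 scale in WT mice, whereas in KO mice the difference was -0.07.

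*Asns* (ENSMUSG00000029752, chr6:7675169-7693254, minus strand) encodes asparagine synthetase, which moves the amide nitrogen of glutamine onto aspartate and so releases glutamate. It was the least abundant of the 8, with 4.42 CPM in WT and 8.40 in KO males, and 7.06 in WT and 8.11 in KO females. As for *Aldh18a1*, male WT was the lowest group. The log2FC in males was 0.93 (SE 0.27, 95% interval 0.36 to 1.50, unadjusted p = 0.00371) and just missed the threshold over all genes (adjusted p = 0.0590). In females it was 0.20 (SE 0.25, 95% interval -0.34 to 0.75, adjusted p = 0.731). The interaction of -0.73 (SE 0.37, adjusted p = 0.549) was not called.

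**Figure D2:**
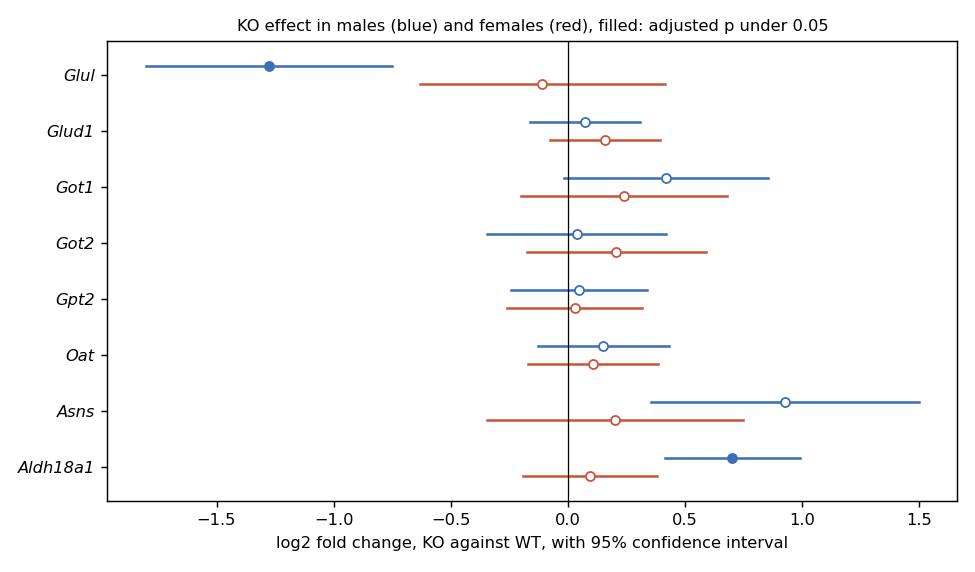
log2FC of KO against WT for the 8 enzymes with 95% confidence intervals, in males (blue) and females (red), n = 3 libraries in each group; filled points have an adjusted p under 0.05. *Glul* at -1.27 and *Aldh18a1* at 0.70 in males are the filled points, and the female intervals of all 8 enzymes cross 0.

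The aminotransferases *Got1* and *Got2* pass the amino group of glutamate to oxaloacetate, in the cytosol and in mitochondria respectively, and form part of the malate-aspartate shuttle. *Got1* (chr19:43499752-43524605, minus strand) was at 13.2 CPM in WT and 17.6 in KO males, and at 14.9 in WT and 17.6 in KO females. Its log2FC was 0.42 in males (SE 0.20, 95% interval -0.02 to 0.86, adjusted p = 0.247) and 0.24 in females (SE 0.21, adjusted p = 0.600). The estimate was thus positive in both sexes and not called in either. *Got2* (chr8:95864134-95888547, minus strand) was at 22.4 CPM in WT males, 23.0 in KO males, 22.5 in WT females and 26.0 in KO females. The interval for *Got2* was -0.34 to 0.42 in males and -0.18 to 0.59 in females, so neither sex showed a change of 2-fold or more at this precision.

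*Gpt2* (chr8:85492576-85527560, plus strand), the mitochondrial alanine aminotransferase, was at 26.9 CPM in WT and 27.8 in KO males, and at 30.8 in WT and 31.4 in KO females. Its log2FC was 0.05 in males (95% interval -0.24 to 0.34) and 0.03 in females (95% interval -0.26 to 0.32), with adjusted p of 0.860 and 0.934.

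*Glud1* (chr14:34310727-34345265, plus strand) encodes glutamate dehydrogenase, which releases ammonia from glutamate in mitochondria and thus runs opposite to the ammonia fixation by *Glul*. It was at 116 CPM in WT and 122 in KO males, and at 122 in WT and 136 in KO females. The log2FC was 0.07 in males (SE 0.11, 95% interval -0.16 to 0.31, adjusted p = 0.726) and 0.16 in females (SE 0.11, 95% interval -0.08 to 0.39, adjusted p = 0.500). Both intervals exclude a fall or rise of the size of *Glul* in males.

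*Oat* (chr7:132557478-132576398, minus strand) encodes ornithine aminotransferase, which links ornithine to glutamate semialdehyde and thereby to proline. It was at 64.9 CPM in WT and 72.1 in KO males, and at 76.3 in WT and 82.2 in KO females. Both female groups were above both male groups. The log2FC of KO against WT was 0.15 in males (SE 0.13, adjusted p = 0.511) and 0.11 in females (SE 0.13, adjusted p = 0.715). The female against male log2FC was 0.21 (SE 0.10, unadjusted p = 0.0444), which did not pass over all genes (adjusted p = 0.882). *Oat* lies within the annotated span of *Fgfr2* on the same strand, and annotated copies of *Got2* and *Glud1* elsewhere in the genome (*Got2-ps1* and *Glud-ps*) are not among the genes of the tables, so reads shared with them are uncertain.

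Averaged over both sexes, *Glul* fell by 0.69 on the log2 scale (SE 0.17, adjusted p = 0.0267) and *Aldh18a1* rose by 0.40 (SE 0.10, adjusted p = 0.0221). These were again 2 of the 8 enzymes, where 9.07% of all genes were called. *Asns* was at 0.56 (SE 0.18, adjusted p = 0.0685) and *Got1* at 0.33 (SE 0.14, adjusted p = 0.156). The mean effect uses the same libraries as the effect within each sex and adds no independent evidence. For female against male, 0 of the 8 enzymes and 0.0316% of all genes were called by limma. *Oat* was the 1 enzyme with an unadjusted p under 0.05. This comparison comes from another fit, with 14.6 degrees of freedom against 13.8, whose terms are not known. Its SE was 0.65 for *Slc4a11* and 0.29 for *Glul*, against 0.155 and 0.17 for the mean KO effect. The few calls thus say little about sex differences of genes that change in KO.

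The KO log2FC was positive for 7 of the 8 enzymes in males and for 7 of 8 in females, with *Glul* as the exception in both sexes. The median over the 8 was 0.11 in males and 0.13 in females, beside -0.02 and 0.01 over all genes. In males the values ran from -1.27 to 0.93, whereas in females they ran from -0.11 to 0.24.

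**Figure D3:**
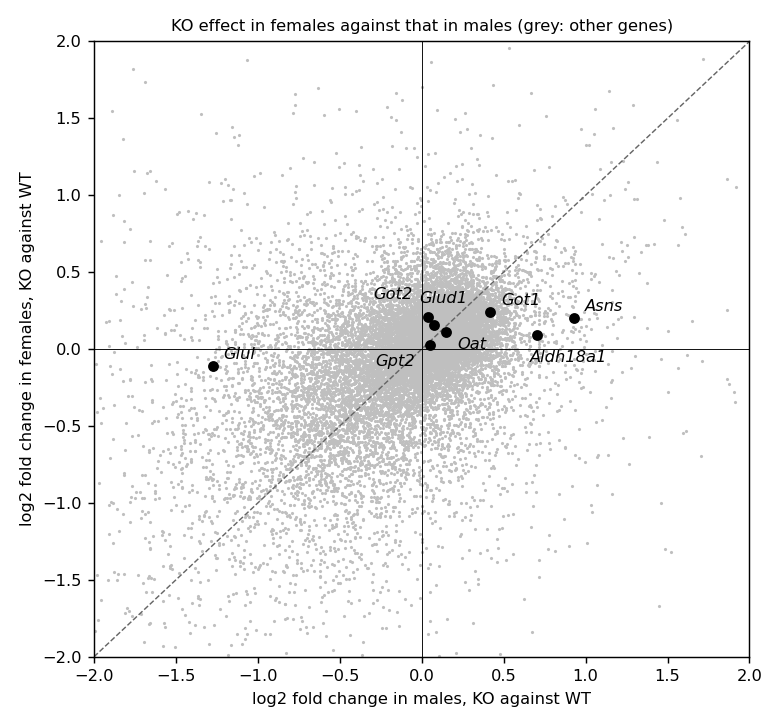
log2FC of KO against WT in females (vertical) plotted against that in males (horizontal) for the 8 enzymes (black) and all other genes (grey), with the line of equal effects dashed; 337 genes beyond 2 log2 units are not drawn. *Glul*, *Aldh18a1* and *Asns* lie far from 0 along the male axis and close to 0 along the female axis.

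The enzymes around these 8 were described from lists written for this tissue. Over all genes 5.47% were called in males, 1.42% in females and 9.07% in the mean over both sexes. In such short lists 1 or 2 calls in males say little about a list as a whole. Of 23 other enzymes of glutamine and glutamate with a value, 2 fell in KO males and 0 rose. *Oplah*, the oxoprolinase that returns 5-oxoproline to glutamate, was at 82.0 CPM in WT and 48.4 in KO males, and at 58.4 in WT and 64.0 in KO females. Its log2FC was -0.76 in males (SE 0.12, adjusted p = 0.00292) and 0.13 in females (SE 0.12, adjusted p = 0.613). The interaction was called for *Oplah* (0.89, adjusted p = 0.0311), so for this gene the male and female effects differed past the threshold. *Prodh*, which starts the breakdown of proline toward glutamate, fell in males by 0.58 (SE 0.15, adjusted p = 0.0402), a call lost with a single adjustment over males, females and interaction together (adjusted p = 0.0638). *Aldh4a1*, which completes that breakdown, rose in the mean over both sexes (log2FC 0.51, adjusted p = 0.0193).

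Among the 12 glutamine amidotransferases, which use the amide nitrogen of glutamine for synthesis, 1 was called in males and 0 in females. The shares over all genes were 5.47% and 1.42%. *Gfpt1*, the first enzyme of hexosamine synthesis, was at 106 CPM in WT and 168 in KO males, and at 146 in WT and 154 in KO females. Male WT was again the lowest group. The log2FC in males was 0.66 (SE 0.12, adjusted p = 0.00748), and the interaction was not called (adjusted p = 0.162). Of 5 other aminotransferases with a value, *Psat1* of serine synthesis fell in the mean over both sexes (log2FC -0.63, adjusted p = 0.0133), and 0 were called within a sex by limma.

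Of 18 other ammonia-producing enzymes with a value, *Cda*, cytidine deaminase, rose in males (log2FC 1.16, SE 0.22, adjusted p = 0.00932) and *Ddo*, D-aspartate oxidase, fell (log2FC -0.67, SE 0.17, adjusted p = 0.0342, or 0.0555 with the single adjustment). *Maoa*, monoamine oxidase A, rose in the mean over both sexes (log2FC 0.42, adjusted p = 0.0250). In the urea cycle and polyamine list, with 12 genes, *Sat1*, which acetylates polyamines, rose in males (log2FC 0.65, adjusted p = 0.0297). *Sms*, spermine synthase, rose in females (log2FC 0.91, SE 0.18, adjusted p = 0.0257) and was at 0.57 in males (adjusted p = 0.0643). Of 11 genes of serine, glycine and asparagine supply, 0 were called within a sex by limma, and *Aldh1l1* (log2FC 0.69, adjusted p = 0.0316) and *Nars* (log2FC 0.26, adjusted p = 0.0488) rose in the mean. Of 13 citric acid cycle genes, *Idh2*, the mitochondrial NADP-dependent isocitrate dehydrogenase, fell in males (log2FC -0.56, adjusted p = 0.0318, or 0.0517 with the single adjustment), while 12 of the 13 had a positive log2FC in each sex. *Acly* of that list rose in the mean (log2FC 0.33, adjusted p = 0.0178). Beside these lists, 5.47% of all genes were called in males, 1.42% in females and 9.07% in the mean.

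Among 19 carriers of glutamine, glutamate, aspartate and ammonia with a value, *Slc7a5*, a subunit of the exchanger that takes up leucine against glutamine, rose in males. It was at 309 CPM in WT and 489 in KO males, and at 312 in WT and 316 in KO females, so male KO stood above the other 3 groups (log2FC 0.66, SE 0.14, adjusted p = 0.0141). Its interaction was -0.64 (adjusted p = 0.188). The glutamate transporters *Slc1a2* (log2FC -1.40, SE 0.27, adjusted p = 0.0187) and *Slc1a3* (log2FC -0.51, SE 0.11, adjusted p = 0.0310) fell in females. In males they were at -0.62 (adjusted p = 0.178) and -0.35 (adjusted p = 0.0775). In the mean over both sexes 4 carriers fell, among them *Slc1a1* (log2FC -1.57, adjusted p = 0.0219), and 2 rose, *Slc7a5* and its partner *Slc3a2* (log2FC 0.34, adjusted p = 0.0445). The shares called over all genes were 5.47% in males, 1.42% in females and 9.07% in the mean.

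*Asns* and *Aldh18a1* are known targets of ATF4, the transcription factor of the amino acid response, so other genes induced by ATF4 were set beside them. In KO males 6 of 28 rose, *Atf4* itself among them, and 2 fell, where 5.47% of all genes were called. In KO females 0 of the 28 were called by limma, which at 1.42% over all genes says little about a list of this size. *Atf4* was at 66.3 CPM in WT and 137 in KO males, and at 88.0 in WT and 106 in KO females (log2FC in males 1.05, SE 0.17, adjusted p = 0.00418). *Slc7a1*, a carrier of cationic amino acids, rose by 0.94 in males (SE 0.14, adjusted p = 0.00297), and *Aars*, an aminoacyl-tRNA synthetase, by 0.67 (SE 0.13, adjusted p = 0.00991). *Vldlr*, a lipoprotein receptor (log2FC -1.47, adjusted p = 0.0262), and *Ddit3*, which encodes the stress factor CHOP (log2FC -0.63, adjusted p = 0.0330, or 0.0537 with the single adjustment), fell in males. In the mean over both sexes 6 of the 28 rose and 4 fell, where 9.07% of all genes were called. Among those that rose were *Atf4* (log2FC 0.66), *Slc7a1* (0.53) and *Aars* (0.42), and among those that fell was *Trib3* (log2FC -0.64, adjusted p = 0.00931). The median of the list in males was 0.12, and the interaction was called for 0 of the 28 by limma. Genes of the list thus moved in both directions.

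**Figure D4:**
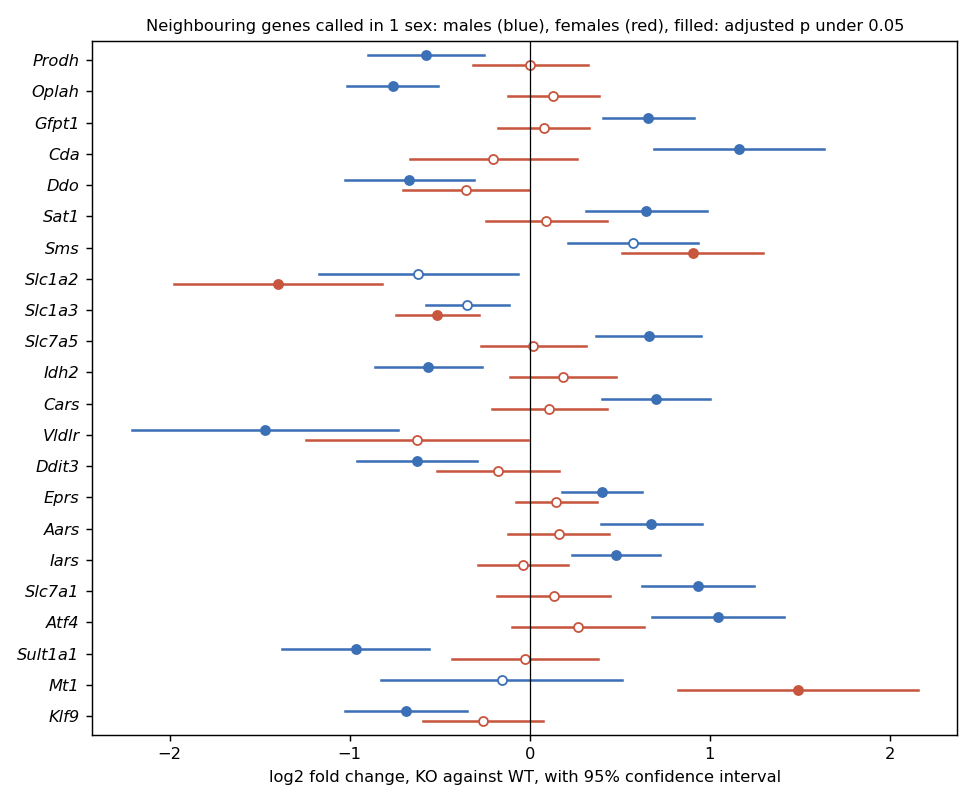
log2FC of KO against WT with 95% confidence intervals in males (blue) and females (red) for the 22 genes of the pathway lists called in at least 1 sex; filled points have an adjusted p under 0.05. The genes were drawn because they were called, 18 in males and 4 in females, and 0 of the 22 are filled in both sexes, where 0.562% of all genes were called in both.

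Markers of the tissue and of cells that could be carried along were counted in the same tables. Without *Slc4a11*, the deleted gene, the other 11 corneal endothelial markers summed to 20980 CPM in WT and 23400 in KO males, and 21290 in WT and 22880 in KO females, and 0 of them were called in either sex by limma. With it, the sum fell in KO females from 25970 to 23520 CPM. The 8 stromal markers summed to 18390, 13300, 18150 and 10400 CPM in WT males, KO males, WT females and KO females, and the 9 epithelial markers to 1574, 1025, 1459 and 798 CPM, so both sums were lower in KO in each sex. Most of the epithelial sum was *Aldh3a1*, at 1374, 912.5, 1369 and 749.9 CPM, so that sum mainly follows 1 gene. Within a sex 0 of the stromal markers were called by limma. In the mean over both sexes 5 fell, where 9.07% of all genes were called. Of the epithelial markers *Aldh3a1* fell in each sex (log2FC -0.59 in males, adjusted p = 0.0444, and -0.87 in females, adjusted p = 0.0134). Markers of iris pigment cells (34.1, 13.7, 44.6 and 6.05 CPM) and of lens (55.5, 17.5, 16.1 and 5.84 CPM) also summed to less in KO. Of the 5 iris markers with a value, 0 were called within a sex and 2 fell in the mean. Of the 7 lens markers 0 were called in either sex or in the mean. Their errors were large, as for *Crybb2* (log2FC -2.53, SE 3.28 in males, and -3.91, SE 10.0 in females), so the lens difference is uncertain. Of the muscle markers 2 of 6 had a value, and *Myh1* with a mean of 2.92 CPM over all libraries, rose in males (log2FC 2.14, adjusted p = 0.00945), while of the erythrocyte markers 1 of 5 had a value. The leukocyte markers were lower in KO males, at 39.8 against 67.5 CPM, and higher in KO females, at 78.4 against 45.9 CPM, with 0 of 8 called in either sex by limma. The sex difference of their KO effect was positive for 8 of 8, with a median of 1.145, and was called for 0. Of all genes 5.47% were called in males and 1.42% in females. A count of 0 within a sex thus says little for marker lists this short. The part of these cells in the changes of *Glul* and *Aldh18a1* was not tested.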

How the data were processed

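RNA was sequenced as paired-end reads from a stranded total RNA kit of low input. The submitters' processing notes name HISAT2, limma and the build GRCm38 (mm10), and the authors fitted limma with voom weights to sex, genotype and their interaction. The 3 tables the authors deposited hold log2 fold changes, the mean log2 CPM, the moderated t (a score), the p-value and its adjusted p-value. They are results of the authors' own comparisons, used because they hold the only values. Versions, counter and depth are not given in the sources used here.

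Genotype was taken to be coded with males as the reference, so that its coefficient gives KO against WT within males. This was inferred and is not labelled. The SE of the interaction was 1.42 times larger at the median, and 4 of 4 Y-linked genes were negative in the table for sex, which is another fit. Adding the interaction gives the female effect, whose squared SE is the interaction squared SE less that of genotype, and degrees of freedom (13.8) came from t and p. Group levels mix this fit with that for sex, which has 14.6 degrees of freedom and so is not the same model. In simulated tables where 200 of 15838 genes differed by 1.5 log2 units in females, 150 of them passed, as did 7 unchanged genes.

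R 4.3.3, limma 3.58.1, Python 3.11.15 and scipy 1.17.1 were used, with GENCODE M21 for positions. The members, the 19 gene lists and the tests were chosen with earlier results of these data known. Named genes are the members, *Slc4a11*, up to 3 called genes per list and direction, and the 3 genes nearest to *Glul*. Some genes under this rule are not reported here. Alternatives changed the adjustment, the filter on low values, the fold threshold, the centring and the SE.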

Additional observations from a re-analysis of the deposited data

Results flagged for a closer look

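*Oplah* was flagged because its KO effect differed between the sexes by the interaction test of limma (0.89 on the log2 scale, adjusted p = 0.0311). In males the log2FC was -0.76, against 0.13 in females. None of the 8 enzymes met this criterion, and the search for single libraries that stand apart was not possible without values per library.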

How the results depend on the processing

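The number of enzymes called in KO males was 2, and it was 0 with Benjamini-Yekutieli adjustment, 0 with Holm adjustment and 1 (*Glul*) with |log2FC| > 1. For the mean over both sexes it was 2, and 0 under each of these 3 settings. The stricter adjustments act on the same p-values, so the estimates stayed as they were. Of 275 alternatives for single enzymes, 264 kept the direction and the side of the threshold, 11 lost the call and 0 reversed. Most of the 275 concern enzymes that were not called, from which a stricter setting cannot take a call. Calls to lose existed for *Glul* and *Aldh18a1* alone, with 7 alternatives each in males and 6 each in the mean. The 11 losses were 4 with Benjamini-Yekutieli, 4 with Holm and 3 with the fold threshold. Only the centring changed an estimate, so 0 reversed says little. The adjusted p of *Glul* in males ranged from 0.00651 to 1 over 7 alternatives, and that of *Asns* from 0.0519 to 1 over 6. *Asns* has no value with a filter of 10 CPM. Of 340 alternatives for called genes of the lists, 150 lost the call and 0 reversed. With 1 adjustment over the 3 comparisons together (males, females and interaction), the calls in males of *Prodh* (adjusted p = 0.0638), *Idh2* (0.0517), *Ddit3* (0.0537), *Ddo* (0.0555) and *Eprs* (0.0653) were lost.

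No paired analysis was possible because the tables hold no values per library, and leaving out a replicate could not be run for the same reason. Depth is unknown, so precision rests on the SE alone.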
